A study of Caenorhabditis elegans with 10 samples.

Results

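Nuclear hormone receptors are transcription factors that bind DNA through a zinc finger domain and, in many cases, a small lipophilic ligand through a second domain. The receptors described here were all genes named nhr with a number, without nhr-49 and nhr-80. The transcript with the highest mean stood for its gene, and a gene was kept when that mean over 5 conditions was at least 1 FPKM (footprint fragments per kilobase, relative to the total of the condition). This left 73 receptors of the 267 nhr genes in a table of 19985 genes. The study profiled ribosome-protected fragments, the pieces of mRNA that a translating ribosome covers, in whole wild-type (N2) Caenorhabditis elegans on their way into the cold. Animals were raised at 20°C on OP50 bacteria to the 1-day-old adult stage and collected (20°C), or moved to 10°C and collected (10°C), or moved on to 4°C and collected on day 1, day 3 or day 5. The stay at 10°C was 2 h by the protocol and 3 h by the sample labels. The labels of the last group give day 5 in the sample title and day 3 in the treatment field, and the title was followed. Each of the 5 groups had 2 libraries, but the table holds 1 pooled value per group, so no value below has an SD or a p, and each difference is between pooled libraries. No animals of the same age were kept at 20°C, so effects of cold and of elapsed time or age cannot be told apart.

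C. elegans has far more nuclear receptor genes than other animals, mostly from an expansion of receptors related to HNF4, the vertebrate liver receptor. A smaller set has a direct counterpart in insects and vertebrates. In the worm, receptors of this family are known to control fat desaturation, vitamin B12-dependent metabolism, detoxification, immune defence and moulting, and many act in the intestine. Most family members have no known ligand or function.

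The footprints behind these values are few. Counts were recovered from the FPKM, and the columns held 424059 counts on genes at 20°C, 300743 at 10°C, and 1560274, 1693451 and 1747362 on day 1, 3 and 5 at 4°C. The highest count of any receptor was 13 at 20°C and 6 at 10°C, against 99, 148 and 123 on the 3 days at 4°C. For a coding sequence of 1 kb, 1 count was worth 1.48 FPKM at 20°C and 2.06 FPKM at 10°C, but between 0.327 and 0.376 FPKM at 4°C. A receptor at 1 FPKM therefore rested on about 1 count in both warm columns, and 5 receptors at 20°C and 14 at 10°C were listed at 0. Values on the 3 days at 4°C are the firmer ones. FPKM is a share of its column, so each level is relative to all other genes of the same animals. In whole animals, fewer cells of a type and less RNA per cell cannot be told apart.

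Receptors were translated at low levels. Their mean over the 5 conditions ran from 1.03 to 22.5 FPKM with a median of 2.19 FPKM, while the 9945 genes of the whole table that passed the same minimum had a median of 8.95 FPKM. Only 4 receptors lay at or above that median, 15 were over 5 FPKM and 36 were under 2 FPKM. Of all nhr genes 27.3% passed the minimum, against 49.8% of all genes. Of the 194 nhr genes under it, 93 had no count in any column and 4 had at least 10 counts in all. The 3 receptors just inside the minimum were nhr-62, nhr-286 and nhr-213, with means of 1.05, 1.04 and 1.03 FPKM. Just outside were nhr-121, nhr-74 and nhr-183, at 0.921, 0.894 and 0.848 FPKM.

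**Figure D1:**
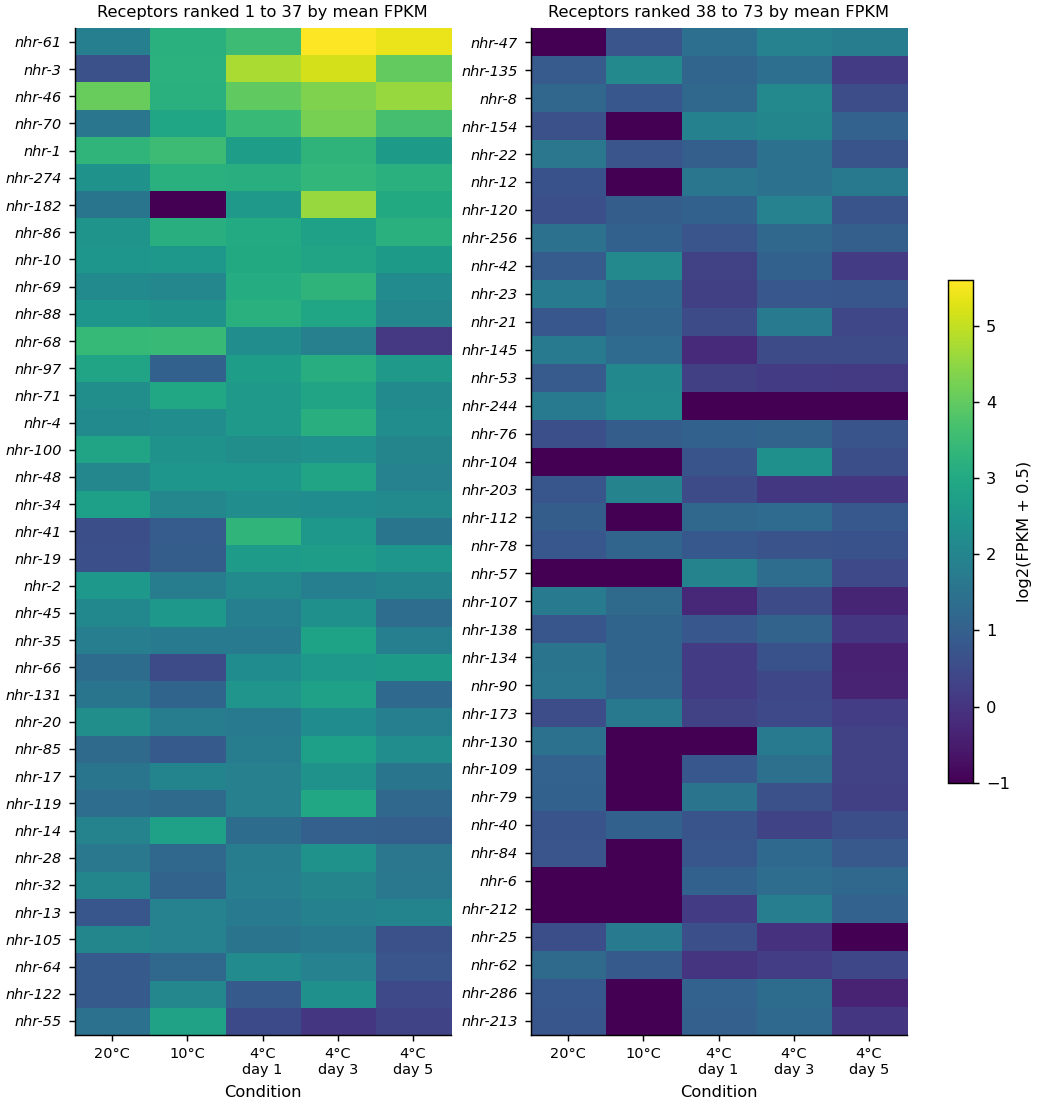
Footprint level of the 73 receptors as log2(FPKM + 0.5), 1 row per receptor in the order of the mean FPKM and 1 column per pooled condition. The darkest cells are values listed at 0, most of them at 10°C. The brightest cells are nhr-61 on day 3 and day 5 and nhr-3 on day 3.

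The receptor with the highest mean was nhr-61 (chromosome II, 14816136 to 14818543, WBcel235). Its footprints stood at 3.09 FPKM at 20°C, 8.60 at 10°C and 11.01 on day 1 at 4°C, then at 48.02 FPKM on day 3 and 42.02 on day 5. Both late columns were well above the other 3, and day 5 was 0.875 times day 3 (0.680 to 1.12), an interval that takes in 1. The level of nhr-3 (X, 14558504 to 14561432) was 1.06 FPKM at 20°C, 8.87 at 10°C, 26.8 on day 1, 35.7 on day 3 and 15.7 on day 5. It was high on all 3 days at 4°C and highest on day 3. The level of nhr-46 (IV, 5747363 to 5757862) was 16.2, 8.66, 15.5, 19.5 and 23.4 FPKM in the same order, and no step of it was clear by the rule given below. The level of nhr-70 (V, 18616587 to 18620243) was 2.53, 7.03, 10.61, 18.35 and 12.02 FPKM.

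The other receptors among the 10 with the highest means were nhr-1, nhr-274, nhr-182, nhr-86, nhr-10 and nhr-69. For nhr-182 (V, 2257420 to 2259927) the level was 2.45 FPKM at 20°C, listed at 0 at 10°C, 5.29 on day 1, 23.6 on day 3 and 7.57 on day 5. Day 3 alone stood out. nhr-1 lay between 5.57 and 10.95 FPKM, nhr-274 between 4.65 and 9.84 FPKM, and nhr-10 between 4.98 and 7.60 FPKM. These 3 receptors had no clear step.

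**Figure D2:**
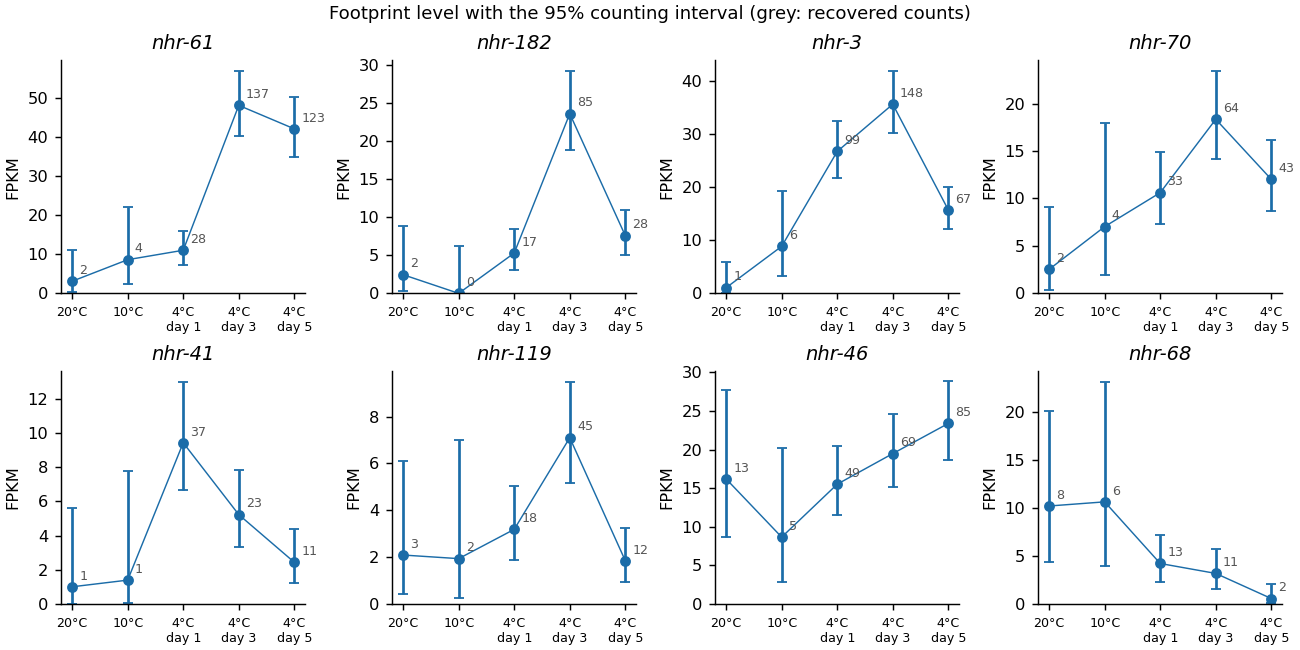
Footprint level (FPKM) of 8 receptors in the 5 pooled conditions. Points are the values, bars the 95% Poisson counting interval and grey numbers the recovered counts. nhr-61 stands at 48.02 and 42.02 FPKM on day 3 and day 5, nhr-182, nhr-3, nhr-70 and nhr-119 are highest on day 3, nhr-41 on day 1 and nhr-46 on day 5, while nhr-68 ends at 0.56 FPKM.

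Summed over the 73 receptors, the share of all footprint counts went up in the cold to a peak on day 3 and came back on day 5. The share was 0.0415% at 20°C (Wilson 95% interval 0.0358 to 0.0481) and 0.0449% at 10°C (0.0379 to 0.0531). At 4°C it was 0.0595% on day 1 (0.0558 to 0.0634), 0.0878% on day 3 (0.0835 to 0.0924) and 0.0547% on day 5 (0.0514 to 0.0583). The interval of day 3 overlapped none of the others. The minimum favours this peak, since 8 of the 73 receptors passed it only through day 3. Day 3 was 1.48 times day 1 (1.36 to 1.60), and day 5 was 1.60-fold lower than day 3 (1.48 to 1.74). Day 1 was 1.32 times 10°C (1.11 to 1.60), and 10°C was 1.08 times 20°C (0.858 to 1.36). Over all 267 nhr genes, with no minimum, day 3 was 1.46 times day 1 (1.34 to 1.57). Day 5 was then 1.63-fold lower than day 3 (1.51 to 1.77). These intervals cover counting error only.

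The 5 receptors nhr-3, nhr-61, nhr-46, nhr-70 and nhr-182 held 30.3% of all receptor counts. Without them the share still peaked on day 3, at 1.29 times day 1 (1.171 to 1.425), and day 5 was 1.66-fold lower than day 3 (1.503 to 1.844). The rise from 10°C to day 1 shrank to 1.17 times (0.957 to 1.43). The 5 were chosen by their summed counts, most of which lie at 4°C. Leaving them out therefore lowers ratios of 4°C to the warm columns by the choice itself. The 194 nhr genes under the minimum, which the rule leaves out, gave 1.26 times (0.967 to 1.64) from day 1 to day 3 and were 2.03-fold lower (1.52 to 2.75) on day 5 than on day 3. A gene high on day 3 is less likely to be among these 194, so their selection runs the other way.

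**Figure D3:**
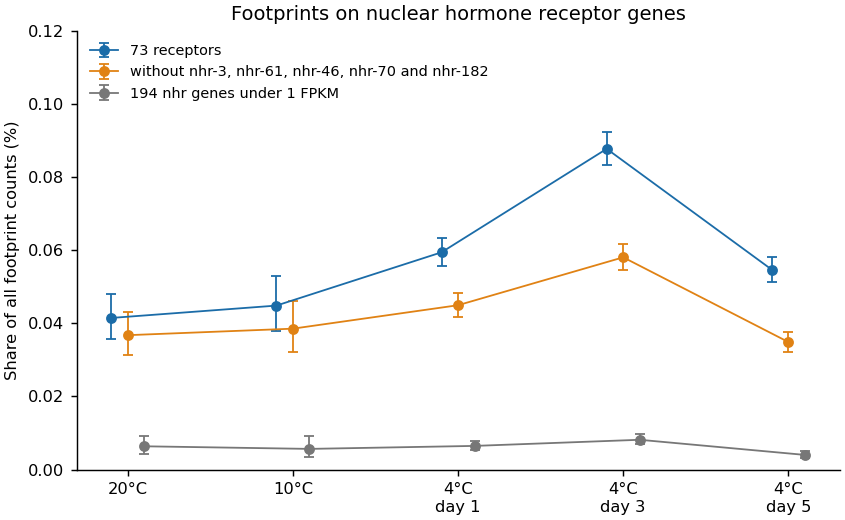
Share of all footprint counts (percent) on receptor genes in the 5 pooled conditions, with Wilson 95% intervals. The 73 receptors go from 0.0415% at 20°C to 0.0878% on day 3 at 4°C and 0.0547% on day 5. Without the 5 receptors with the most counts the peak on day 3 remains, at 0.0581%, and the 194 genes under 1 FPKM hold less than 0.01% throughout.

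Single receptors were compared between conditions on log2(FPKM + 0.5) and called higher or lower at 2-fold. The word clear is kept for a call with 10 or more counts in both columns together whose ratio has a 95% Clopper-Pearson interval lying wholly on its side of 1.

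From day 1 to day 3 at 4°C receptors moved upwards. The median difference was 0.30 on the log2 scale, against 0.04 over all 9945 genes. Above 0 were 54 receptors (74%, against 53% of all genes) and below 0 were 18 (24.7%, against 46%). At least 2-fold higher were 9 receptors (12.3%, against 5.38% of all genes) and none of the 73 was 2-fold lower (6.78% of all genes). Of 56 receptors with enough counts, 8 were clearly higher (14.3%, background 2.52%) and 0 clearly lower (background 4.1%). The minimum itself favours such rises and calls, since 8 receptors passed it only through day 3, among them nhr-130, nhr-104 and nhr-212. Without all genes that passed through their highest column alone, 5 of 48 receptors were clearly higher (10.4%, against 2.42% of genes) and 0 clearly lower (4.04% of genes). Both with the most counts were nhr-61, at 28 and 137 counts or 4.36-fold higher (2.89 to 6.81), and nhr-182, at 17 and 85 counts or 4.46-fold higher (2.63 to 8.01).

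The other 6 clear rises were smaller in counts. nhr-119 went from 3.18 to 7.10 FPKM (18 and 45 counts), 2.23-fold higher (1.26 to 4.09). nhr-35 went from 2.83 to 6.66 FPKM, 2.35-fold higher (1.14 to 5.21). Another 3 came close to the limit of the interval, namely nhr-122 at 3.34-fold (1.06 to 13.8), nhr-104 at 3.86-fold (1.06 to 21.1) and nhr-212 at 4.90-fold (1.07 to 45.5). nhr-130 had 0 counts on day 1 and 11 on day 3. The 95% interval of its ratio began at 2.24. nhr-119 fell under 2-fold, at 0.98 on the log2 scale, once all genes were re-centred, and nhr-119 and nhr-35 did with a pseudocount of 1.

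From day 3 to day 5 receptors moved the other way. The median difference was -0.71 on the log2 scale against -0.08 over all genes. Of the 73 receptors 63 were lower (86.3%, against 58.7% of all genes), 9 higher (12.3%, against 39.8%) and 1 at 0 in both. Lower by at least 2-fold were 20 receptors (27.4%, against 14.7% of all genes), and 0 were 2-fold higher (2.85% of all genes). Clearly lower were 9 of 52 with enough counts (17.3%, background 9.67%) and clearly higher were 0 (background 1.39%). The minimum favours such falls, since some receptors passed it only through day 3. Without all genes that passed through their highest column alone, 14 of 54 receptors were 2-fold lower (25.9%, against 13.9% of genes). Clearly lower were then 8 of 46 (17.4%, against 9.54% of genes). Both comparisons share the day 3 column, so a high value on day 3 enters each of them.

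Of these 9, 4 had been clearly higher on day 3, namely nhr-182, nhr-119, nhr-122 and nhr-104. nhr-182 went from 85 to 28 counts, 3.11-fold lower (2.01 to 4.96). nhr-119 went from 45 to 12 counts, 3.85-fold lower (2.00 to 7.99), and ended at 1.84 FPKM, near its level at 20°C of 2.09 FPKM. nhr-122 and nhr-104 were 5.13-fold (1.45 to 27.6) and 4.45-fold lower (1.222 to 24.32), each down to 3 counts. nhr-104 passed the minimum only through day 3, which favours such a fall. For nhr-61, as given above, day 5 was 0.875 times day 3 with an interval that takes in 1.

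The remaining 5 were nhr-3, nhr-69, nhr-131, nhr-8 and nhr-68. nhr-3 went from 148 to 67 counts, 2.27-fold lower (1.69 to 3.07). nhr-69, which acts with the Smad protein DAF-8 in the control of insulin secretion, went from 9.27 to 4.08 FPKM, 2.27-fold lower (1.17 to 4.62). nhr-131 was 3.37-fold lower (1.40 to 9.30), nhr-8 3.90-fold lower (1.41 to 13.4) and nhr-68 5.64-fold lower (1.23 to 52.4). Only 9 receptors were higher on day 5 than on day 3 (12.3%, against 39.8% of all genes). On the log2 scale the difference was largest for nhr-86 at 0.41, or 1.36 times (0.769 to 2.43), and none was clear.

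The step from 10°C to day 1 at 4°C could be read for few receptors, since the 10°C column held 6 counts or fewer for each. By the 2-fold rule 20 receptors were higher (27.4%, against 17.8% of all genes) and 13 lower (17.8%, against 14.5%). The minimum favours such calls, since 19 of the 73 receptors passed it only through their highest column. Without all such genes, 11 of 54 receptors were higher (20.4%, against 16.3% of genes) and 7 lower (13%, against 11.8%). For all 73, re-centred on genes with many counts, the split was 18 higher and 18 lower. That re-centring takes out a shift of 0.25 on the log2 scale. The share of all genes called after it is not given, so that split has no background. The median difference of receptors was 0.10, the same as that of all genes to 2 decimals. Only 2 of 38 receptors were clearly higher (5.26%, background 6.7%) and 0 clearly lower (background 4.19%).

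These were nhr-3, with 6 counts at 10°C and 99 on day 1, 3.02-fold higher (1.34 to 8.42), and nhr-41. nhr-41, the counterpart of the vertebrate testicular receptors TR2 and TR4, had 1 count each at 20°C and 10°C, then 37, 23 and 11 counts on the 3 days at 4°C. Its levels were 1.00, 1.39, 9.43, 5.23 and 2.44 FPKM, so it was highest on day 1 and lower at each later time. The ratio of day 1 to 10°C was 6.77 with a wide interval of 1.14 to 274, and after re-centring the interval took in 1. nhr-182 had 0 counts at 10°C and 17 on day 1, and the 95% interval of its ratio began at 0.755 and so took in 1.

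Between 20°C and 10°C no receptor differed clearly. By the 2-fold rule 13 were higher (17.8%, against 12.2% of all genes) and 11 lower (15.1%, against 9.1%), but 7 receptors had 10 counts over both columns and 0 of them were clearly higher (background 0.724%) or lower (background 0.201%). Without genes that passed the minimum only through their highest column, 9 of 54 receptors were 2-fold higher (16.7%, against 10.2% of genes). Then 5 were 2-fold lower (9.26%, against 7.63%). With counts of at most 13, all but large changes of a receptor in this step were below what this depth can show. nhr-3, named after its values were seen, had 1 count at 20°C and 6 at 10°C, a ratio of 8.34 (1.01 to 384), and missed the rule of 10 counts.

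Over the whole path from 20°C to day 5, 12 receptors were at least 2-fold higher (16.4%, against 23.6% of all genes) and 11 lower (15.1%, against 21.5%). All genes with at least 50 counts shifted by 0.50 on the log2 scale here, and relative to that shift 8 receptors were 2-fold higher and 29 lower. The median of receptors was -0.30 as measured and -0.80 relative to the shift. The shift comes from genes with many counts, while the median of all 9945 genes was 0.13. Among those with at least 10 counts over both columns, the median was 0.04 for receptors and 0.32 for genes. The share of all genes called after re-centring is not given, so the 8 and 29 have no background. Without genes that passed the minimum only through their highest column, 8 of 54 receptors were 2-fold higher as measured (14.8%, against 22.9% of genes). Then 4 were 2-fold lower (7.41%, against 19.9%). Of all receptors with enough counts, clearly higher were 3 of 33 (9.09%, background 16.7%) and clearly lower was 1 (3.03%, background 11%).

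The clear rises were nhr-61, nhr-3 and nhr-70, each from 1 or 2 counts at 20°C. nhr-61 was 13.6-fold higher (3.68 to 113), nhr-3 was 14.8-fold higher (2.57 to 593) and nhr-70 was 4.75-fold higher (1.24 to 40.5). After re-centring the call of nhr-70 was lost, at 1.54 on the log2 scale. The clear fall was nhr-68. The summed share of all 73 receptors was 1.32 times that at 20°C (1.12 to 1.56), and 0.949 times (0.795 to 1.14) without the 5 receptors with the most counts. Most counts of those 5 lie at 4°C, so the choice itself lowers the second ratio. That ratio cannot show what the net rise rests on.

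**Figure D4:**
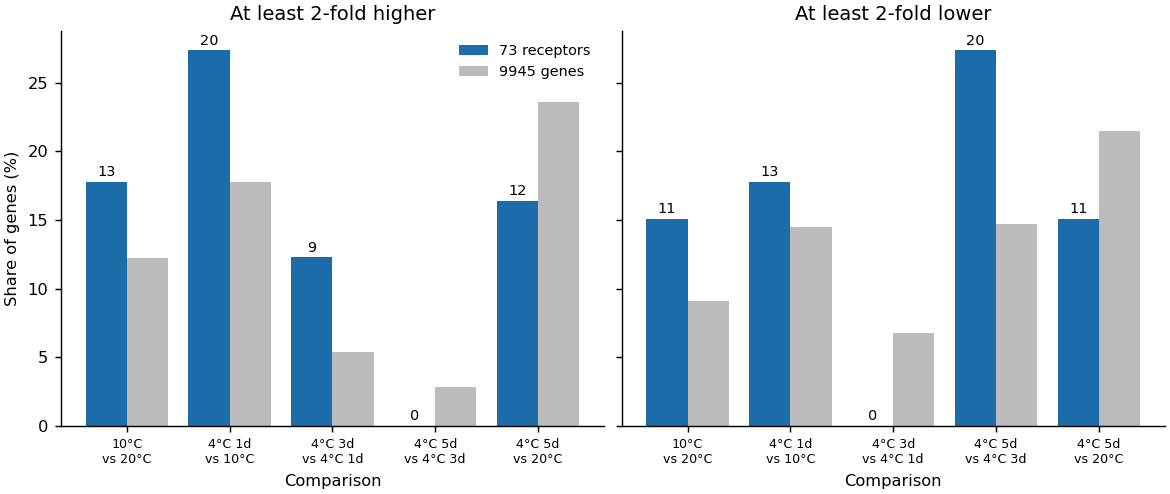
Share of genes (percent) at least 2-fold higher (left) or lower (right) in each of the 5 comparisons, for the 73 receptors (blue, with the number of receptors above each bar) and for all 9945 genes (grey). From day 1 to day 3 at 4°C, 9 receptors are higher and 0 lower. From day 3 to day 5, 0 are higher and 20 lower.

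By role, the receptors with direct counterparts in other animals were mostly low. Of 11 such genes 8 passed the minimum, and their median difference was 0.35 on the log2 scale from day 1 to day 3 and -0.92 from day 3 to day 5. nhr-48, of the same group as the dafachronic acid receptor DAF-12, stood at 3.62, 5.04, 5.07, 6.71 and 3.33 FPKM at 20°C, 10°C and days 1, 3 and 5. nhr-8, a relative of the same group with a role in cholesterol balance and detoxification, stood at 1.762, 1.2245, 1.792, 3.793 and 0.973 FPKM. Both were highest on day 3, and only the later fall of nhr-8 was clear.

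nhr-85, the counterpart of E75 in flies and Rev-Erb in mammals, stood at 1.92, 1.33, 2.92, 6.08 and 4.23 FPKM. Its coding sequence overlaps that of npr-14, so its counts are uncertain. nhr-64, an HNF4 relative, stood at 1.33, 1.85, 4.07, 3.32 and 1.18 FPKM. nhr-6, the NR4A receptor needed to form the spermatheca, had 0 counts at 20°C and 10°C and then 6, 9 and 8 counts, between 1.55 and 2.08 FPKM.

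Receptors that drive moulting were near the limit of detection in these adults. nhr-23, the counterpart of mammalian ROR, had 2, 1, 2, 4 and 4 counts in the order of conditions. nhr-25, the counterpart of FTZ-F1 in flies, had 1, 2, 4, 2 and 0 counts. nhr-67 and nhr-91 had means of 0.160 and 0.701 FPKM and did not pass the minimum, and nhr-111 was listed at 0 in all 5 columns.

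Among 9 receptors with known metabolic roles 7 passed the minimum. nhr-10 and nhr-68 act one after the other to switch on the propionate shunt, a breakdown route used when vitamin B12 is low, and the difference between their courses was not tested. nhr-10 stood at 4.98, 5.19, 7.60, 6.78 and 5.50 FPKM (4, 3, 24, 24 and 20 counts). nhr-68 (V, 11573440 to 11575709) stood at 10.2, 10.7, 4.22, 3.19 and 0.56 FPKM (8, 6, 13, 11 and 2 counts). Against 20°C, day 5 was 18.1-fold lower for nhr-68 (3.61 to 175).

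nhr-66 and nhr-13, both partners of NHR-49 in lipid metabolism, were each highest on day 5. nhr-66 stood at 2.02, 0.94, 4.11, 5.19 and 5.51 FPKM, and nhr-13 at 1.19, 3.30, 2.72, 3.23 and 3.41 FPKM. nhr-76, which takes part in the fat loss driven by serotonin, stood between 1.03 and 1.63 FPKM, and nhr-62, needed for long life under dietary restriction, between 0.49 and 1.92 FPKM. No step of these 4 was clear. nhr-31, needed in the excretory cell, had a mean of 0.041 FPKM, and nhr-114, a receptor of the vitamin B12 and methionine response, was listed at 0 in all 5 columns.

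Of 5 receptors with roles in stress or defence 4 passed, and none had a clear step. nhr-86, a receptor that senses a bacterial phenazine, stood at 4.87, 8.47, 7.74, 6.35 and 8.61 FPKM. nhr-14, with a role in iron uptake and immunity, stood at 3.40, 6.31, 2.018, 1.542 and 1.503 FPKM. nhr-45, with a role in the response to mitochondrial damage, stood at 3.75, 5.21, 3.10, 4.46 and 2.07 FPKM.

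nhr-57, a target of the hypoxia factor HIF-1, had 0 counts at 20°C and 10°C and then 10, 7 and 3 counts, or 3.34, 2.09 and 0.87 FPKM. The 0 counts allow up to 3 counts, so this does not show that it was absent in the warm. nhr-176 did not pass the minimum. Of 3 receptors with roles in development, nhr-2, which acts in the early embryo, stood between 2.90 and 5.22 FPKM, nhr-40, which acts in muscle formation, between 0.77 and 1.58 FPKM, and nhr-60 did not pass.

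Of 7 receptors outside the rule, read for comparison, 2 passed the minimum, and none of their steps was clear. nhr-49, the regulator of fat desaturation and fasting, stood at 18.6, 21.5, 26.8, 33.0 and 31.2 FPKM, and day 5 was 0.947 times day 3 (0.743 to 1.21). sex-1, which counts X chromosomes in the embryo, stood at 9.22, 5.13, 10.3, 8.99 and 12.4 FPKM. daf-12 had a mean of 0.686 FPKM and did not pass.

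Of 7 co-regulators 6 passed. mdt-15, the Mediator subunit that works with NHR-49 and other receptors, stood at 19.6, 31.6, 31.2, 37.1 and 19.3 FPKM, and day 5 was 1.93-fold lower than day 3 (1.56 to 2.38), just under the 2-fold rule. smo-1, the SUMO modifier, was clearly higher on day 5 than at 20°C, 2.21-fold (1.80 to 2.73). Relative to the shift of genes with at least 50 counts in that comparison it was 0.64 on the log2 scale, under 2-fold. That shift was 0.50, while the median of all 9945 genes was 0.13. Of 6 genes for the synthesis of steroid ligands 2 passed. daf-36, the first enzyme of dafachronic acid synthesis, had 3, 2, 1, 0 and 0 counts. emb-8, the cytochrome P450 reductase, was 4.199-fold lower on day 5 than on day 3 (2.99 to 6.01).

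Of 17 genes known from the literature to lie downstream of nuclear hormone receptors 14 passed, and most of them went down along the path. Some, such as fat-5, fat-6 and fat-7, are targets of receptors outside the rule. The list was chosen with earlier results of these data known, so its counts beside the background are a description only. From 10°C to day 1, 7 were clearly lower (background 4.19%) and 1 clearly higher (background 6.7%), and between 20°C and day 5, 11 were clearly lower (background 11%) and 0 clearly higher (background 16.7%). acdh-1, the acyl-CoA dehydrogenase that begins the propionate shunt, stood at 351, 347, 62.5, 26.1 and 9.05 FPKM, 38.8-fold lower on day 5 than at 20°C (24.6 to 64.2). hphd-1, a later enzyme of the shunt, stood at 327, 315, 158, 30.5 and 23.6 FPKM. Over the same path nhr-68 was also clearly lower, while nhr-10 stood at 4.98 FPKM at the start and 5.50 at the end.

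sams-1, the S-adenosylmethionine synthetase, stood at 105.04, 95.05, 10.24, 39.85 and 9.71 FPKM. It was 3.89-fold higher on day 3 than on day 1 (2.65 to 5.86) and 4.10-fold lower on day 5 than on day 3 (2.83 to 6.09). The desaturase genes fat-5, fat-6 and fat-7, which NHR-49 and NHR-80 control, were 20.7-fold (9.70 to 48.97), 7.498-fold (4.75 to 11.9) and 7.75-fold lower (3.49 to 17.8) on day 1 than at 10°C, while nhr-49 itself was 1.24 times its level at 10°C (0.720 to 2.30) and nhr-80 had 1 count at 10°C and 0 on day 1, too few to compare. ftn-1, a ferritin gene, had 0 counts at 10°C and 23 on day 1.

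Most receptors over the minimum had their highest 4°C value on day 3. Of 72 with a count at 4°C, 50 did, 16 were highest on day 1 and 6 on day 5. These are 69.4%, 22.2% and 8.33% of receptors, against 31.9% of all genes highest on day 3 and 32.2% on day 5. Among receptors with at least 30 counts at 4°C, 25 of 34 were highest on day 3 (73.5%, against 29.7% of genes). A receptor can pass the minimum through its highest column alone, and 19 of 73 did (26.0%, against 8.77% of genes), 8 of them through day 3. Among the 54 that would pass without it, 38 were highest on day 3 (70.4%, against 31.2% of genes). Under the minimum the pattern was weaker. Of 95 such nhr genes with a count at 4°C, 43 were highest on day 1 (45.3%), 42 on day 3 (44.2%) and 10 on day 5 (10.5%), against 38.9%, 33.9% and 27.2% of all genes in the table with a count at 4°C. Those genes are of every level. Equal low counts always read highest on day 1, where 1 count at 1 kb is worth 0.376 FPKM, against 0.335 and 0.327 on day 3 and day 5.

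Genes of a low level fell more on day 5 in the whole table, so the receptors were also read beside genes of their own level. Among receptors with a mean of 1 to 2 FPKM 74.3% were highest on day 3, against 42.1% of genes at that level. All 8 receptors that passed the minimum only through day 3 fall in this band, and without the genes that passed through their highest column alone 14 of 17 receptors (82.4%) and 44.5% of genes were highest on day 3. At 2 to 5 FPKM this was 63.6% against 40.7%, and at 5 to 25 FPKM 66.7% against 31.5%. The median difference from day 3 to day 5 was -0.79 for receptors and -0.38 for genes at 1 to 2 FPKM, -0.62 and -0.33 at 2 to 5 FPKM, and -0.69 and -0.07 at 5 to 25 FPKM, on the log2 scale. The 8 receptors that passed the minimum only through day 3 favour the fall at 1 to 2 FPKM. That median was not read without them. In another large family of low level, the F-box genes, 16 of the 64 that passed were highest on day 3 (25%) and their share of counts on day 3 was 1.01 times that on day 1 (0.917 to 1.12). F-box genes fell from day 3 to day 5 as well, with 20 at least 2-fold lower (31.2%) and a share 1.28-fold lower (1.16 to 1.43). Of 58 C-type lectins 10 were highest on day 3 (17.2%), with a share 0.991 times that on day 1 (0.947 to 1.04), and 12 were at least 2-fold lower on day 5 than on day 3 (20.7%), with a share 1.11 times that on day 3 (1.06 to 1.16). The receptors' ratio of day 3 to day 1, 1.48, lies outside both intervals, which cover counting error only.

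Chromosome V holds 167 of the 267 nhr genes (62.5%) but only 27 of the 73 receptors, so 16.2% of its nhr genes passed the minimum against 36.2% of all its genes. On the X chromosome 14 of 23 passed (60.9%, against 48.4%). The median difference from day 1 to day 3 was above 0 and that from day 3 to day 5 below 0 on each of the 6 chromosomes. The medians of all genes had the same signs, 0.04 and -0.08, and no background per chromosome is given. On chromosome I (7 receptors) the second median was only -0.03, and chromosome III held 3 receptors. 15 receptors lay in 6 groups with gaps of at most 20000 bases. The largest held 5 receptors on V between 459795 and 497297.

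Within that group the counts are too few to compare courses, and the difference between neighbours was not tested. nhr-203 and nhr-55 were highest at 10°C, at 3.34 and 6.45 FPKM, with 2 and 4 counts. nhr-130, nhr-212 and nhr-131 were highest on day 3, with 11, 11 and 23 counts. The minimum was passed only through day 3 by nhr-130 and nhr-212, and only through 10°C by nhr-203. The highest column of these receptors was thus favoured by the minimum. nhr-182 has nhr-183 as a neighbour, at 2262489 to 2264634 on V. nhr-183 had 0, 0, 8, 6 and 0 counts in the order of conditions, too few to compare with nhr-182.

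The genes with the course most like that of nhr-61 were gck-1, rsks-1, algn-5, Y39A1A.3 and fem-2, with a Pearson r of 0.994 to 0.999 over the 5 columns, chosen among 6268 genes with at least 50 counts. Their change was far smaller. rsks-1, the S6 kinase, went from 27.8 FPKM at 20°C to 62.5 on day 3, and gck-1, a germinal centre kinase, from 20.2 to 34.6 FPKM. For nhr-182 the nearest were clp-2, B0205.1, Y77E11A.14, sel-2 and F20D12.2, with r of 0.997 to 0.998. Y77E11A.14 moved as widely as nhr-182, at 3.43 FPKM at 20°C, 0 at 10°C, 6.97 on day 1, 26.4 on day 3 and 8.32 on day 5, on 1, 0, 8, 34 and 11 counts. An r over 5 points is a description only, and the points of each pair share the depth of their column.

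Marker genes of tissues also moved along the path. All 5 intestine markers (elt-2, ges-1, vit-2, vit-6 and act-5) were found in each column. Their summed level was 6861, 6121, 7886, 5978 and 1489 FPKM, so it was lower on day 5, where receptors were also lower. The lowest of these markers had between 2 and 20 counts per column, so the sum is led by the highest of them and need not follow the intestine as a whole. The 5 germline markers summed to 1469, 1547, 1987, 2370 and 3425 FPKM, the 5 neuron markers to 93.1, 163, 227, 225 and 214 FPKM, the 4 body wall muscle markers to 246, 262, 106, 90.0 and 67.2 FPKM and the 4 hypodermis markers to 456, 485, 39.8, 12.4 and 5.13 FPKM. At least 1 of the 4 hypodermis markers was at 0 at 20°C, on day 3 and on day 5. None of these 5 sums peaked on day 3. The 4 sperm markers, 1 of them at 0 throughout, summed to 26.4, 39.7, 32.0, 23.3 and 62.6 FPKM. Of the 3 pharynx markers, all found in each column, the sum was 16.8, 23.5, 12.6, 23.7 and 7.59 FPKM, highest on day 3 and close to that at 10°C. The part of tissue composition in the receptor values was not tested.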

How the data were processed

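The authors deposited footprint FPKM, 1 pooled column per condition; by their methods and the labels, adapters were trimmed with fastp 0.23.4 and reads aligned to WBcel235 with STAR 2.7.11b. For pooling (sum or mean) and strand in counting, the rule was not given in the sources used here. One further column matched no sample (1 column, not used), and the RNA-seq was not analysed here. Counts were recovered as FPKM times coding length (Ensembl 115) divided by each column's step, and 100% came out whole (tolerance 0.02). They scattered less than independent reads: for 10°C against 20°C, the squared z averaged 0.663 over 1707 genes with 10 to under 20 counts, where 1 is the value for independent reads.

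The members and gene lists were chosen with earlier results of these data known. Differences were taken on log2(FPKM + 0.5), with 95% Clopper-Pearson intervals for ratios, Poisson intervals for levels and Wilson intervals for shares. Intervals and floors (3 counts) cover counting error only. Receptors named were nhr-61 and nhr-182, the 10 with the highest means, all with a clear step, those of the role lists, the 3 on each side of the minimum and, for the course most like nhr-61 and nhr-182, 5 genes each; chromosomal neighbours were named after their values were seen. Alternatives were other pseudocounts, minimums, centring, transcripts and counts. Steps were tested on simulated data. Tools were pandas 2.3.3, SciPy 1.17.1 and NumPy 2.4.6 under Python 3.11.15, and Matplotlib 3.10.9 for plots.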

Additional observations from a re-analysis of the deposited data

How the results depend on the processing

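Of 198 checks of the 23 clear differences of single receptors under 9 other settings, 193 kept their call, 5 lost it and 0 turned direction. Many of these checks could not lose a call. Other minimums and leaving out genes only change which genes are read, and doubled counts only narrow the interval. Receptors absent under a setting were not checked. Only pseudocounts, re-centring and the choice of transcript could remove a call. Lost were nhr-35 (1.00 on the log2 scale) and nhr-119 (0.95) from day 1 to day 3 with a pseudocount of 1, and, after re-centring, nhr-119 in that step (0.98), nhr-41 from 10°C to day 1 (2.14) and nhr-70 from 20°C to day 5 (1.54). Reading each gene from the transcript with the most counts, or leaving out the receptor that overlaps another gene, kept all counts within 1.5 times. With a pseudocount of 0.1, 15 receptors were 2-fold higher and 2 lower from day 1 to day 3, and 23 lower from 20°C to day 5. With a pseudocount of 1, 12 were lower from day 3 to day 5 and 7 from 20°C to day 5. Re-centred, 29 were lower from 20°C to day 5 and 1 was clearly higher from 10°C to day 1. With counts doubled in the interval, 6 were clearly higher and 2 clearly lower from 10°C to day 1, 14 clearly lower from day 3 to day 5 and 7 clearly higher from 20°C to day 5. The share of all genes called under these settings is not given, so these counts have no background.

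With a minimum mean of 2 FPKM, receptors 2-fold higher and lower were 6 and 2 from 20°C to 10°C, 8 and 4 from 10°C to day 1, and 7 and 3 from 20°C to day 5. From day 1 to day 3, 5 were higher and 5 clearly higher, and from day 3 to day 5, 9 were lower. The shares in order of the 5 conditions were then 0.0316%, 0.0352%, 0.0495%, 0.0729% and 0.0468%. With no minimum the counts higher and lower were 26 and 33 from 20°C to 10°C, 38 and 26 from 10°C to day 1, 20 and 2 from day 1 to day 3, and 20 and 30 from 20°C to day 5, with 33 lower from day 3 to day 5. The shares at 4°C were then 0.0660%, 0.0960% and 0.0587%. In every case named here the set of genes tested changed with the minimum. For these minimums too, the share of all genes called is not given, so the counts have no background.

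Another 4 settings were added after seeing the data. Without genes that pass the minimum only through their highest column, 5 of 54 receptors were 2-fold lower from 20°C to 10°C (9.26%, against 7.63% of genes). From 10°C to day 1, 11 were higher (20.4%, against 16.3%) and 7 lower (13%, against 11.8%). Clearly higher from day 1 to day 3 were 5 of 48 (10.4%, against 2.42%). From 20°C to day 5, 4 of 54 were lower (7.41%, against 19.9%). Without the 5 receptors with the most counts the shares at 4°C were 0.0450%, 0.0581% and 0.0349%. The genes under the minimum alone gave 0.00637%, 0.00565%, 0.00647%, 0.00815% and 0.00401%. The last is the reading of the highest 4°C value given above. No paired analysis was possible because the columns are pooled and carry no replicate number, and leaving out a replicate was not run for the same reason. Depth limits the 20°C and 10°C columns most, where 72 and 73 of the 73 receptors had fewer than 10 counts.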
